A study of Mus musculus with 31 samples.

Results

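Transcripts of 10 genes of the circadian clock (Per1, Per2, Per3, Cry1, Cry2, Arntl, Clock, Dbp, Nr1d1 and Nr1d2) were followed in the uterus of ovariectomised mice 6 h after an injection of 17β-estradiol (E2). The members were the 14 probes, of 55681 probes that were not controls, whose gene name on the array was one of these symbols. All 10 genes were among the 27071 genes bright enough to be tested. The study measured uterine RNA on 31 one-colour Agilent arrays from 2 mutant lines for estrogen receptor α (ERα, the gene Esr1) and asked how nuclear and membrane actions of the receptor shape the response to E2. The AF2 line, on C57BL6/J, contributed AF2 KO uteri with E2 (n = 3) or placebo (n = 4) and AF2 WT uteri with E2 (n = 4) or placebo (n = 4). The MISS line, on C57BL6/N, contributed MISS KO uteri with E2 (n = 4) or placebo (n = 4) and MISS WT uteri with E2 (n = 4) or placebo (n = 4). E2 was injected under the skin at 8 µg/kg in castor oil, and placebo was 0 µg/kg. All mice had been ovariectomised at 4 weeks of age and kept for 3 weeks on normal chow before treatment. As background, AF2 is activation function 2 of ERα, the surface that recruits coactivators once ligand is bound, and the MISS mutant receptor lacks the lipid anchor that brings ERα to the plasma membrane. The labels call both mutants KO, although the mutations alter the receptor in every cell and do not delete its whole gene. The labels give no time of day for the injection or the killing and do not say whether the arrays of a group came from separate animals, so the p-values measure the spread between these samples only.

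The mammalian clock is a transcription loop. The proteins ARNTL (also BMAL1) and CLOCK bind as a pair to E-box sequences and switch on the Per, Cry, Nr1d and Dbp genes. PER and CRY proteins return to block that pair. NR1D1 and NR1D2 (REV-ERBα and REV-ERBβ) repress Arntl and Clock, and DBP activates genes through D-box sequences. In a tissue sampled around the clock, Dbp, Nr1d1 and Per3 therefore peak at a time when Arntl and Clock are low. Rhythms of clock genes are known in the rodent uterus.

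Promoter sequence was available from RefSeq (GRCm38.p6) for 9 of the 10 genes, in 13 windows of the 250 bases before an annotated start. Both strands were searched for the E-box CACGTG, the E-prime box CACGTT, the D-box TTANGTAA, the cores TAGGTCA and TGGGTCA that ROR and REV-ERB proteins bind, the cAMP element TGACGTCA and the palindromic estrogen response element. The 4 windows shown are those with an E-box or a D-box, elements through which proteins encoded by some of these genes act, and that of Nr1d1. The Cry2 window, which like that of Nr1d1 held an E-prime box, is not shown. They read 5′ to 3′ along the gene, with every match in capitals. The capitals AACGTG are the E-prime box read from its other strand.
Per3, chr4:151044666-151044915, minus strand: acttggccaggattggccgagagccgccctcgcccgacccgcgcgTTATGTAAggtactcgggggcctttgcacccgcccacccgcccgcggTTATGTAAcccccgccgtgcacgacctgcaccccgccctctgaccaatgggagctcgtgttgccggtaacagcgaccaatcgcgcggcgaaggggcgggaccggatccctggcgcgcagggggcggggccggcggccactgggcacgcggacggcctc
Nr1d1, chr11:98775378-98775627, minus strand: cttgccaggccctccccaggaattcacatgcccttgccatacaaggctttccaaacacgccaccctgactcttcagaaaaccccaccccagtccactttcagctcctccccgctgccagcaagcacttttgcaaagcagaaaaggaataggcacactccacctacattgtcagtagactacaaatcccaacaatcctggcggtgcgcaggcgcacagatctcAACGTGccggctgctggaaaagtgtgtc
Cry1, chr10:85185055-85185304, minus strand: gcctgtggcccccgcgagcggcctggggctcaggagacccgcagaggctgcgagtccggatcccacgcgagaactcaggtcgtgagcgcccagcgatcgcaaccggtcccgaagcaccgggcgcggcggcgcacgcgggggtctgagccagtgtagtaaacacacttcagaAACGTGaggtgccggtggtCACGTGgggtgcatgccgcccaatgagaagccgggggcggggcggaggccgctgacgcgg
Per1, chr11:69098699-69098948, plus strand: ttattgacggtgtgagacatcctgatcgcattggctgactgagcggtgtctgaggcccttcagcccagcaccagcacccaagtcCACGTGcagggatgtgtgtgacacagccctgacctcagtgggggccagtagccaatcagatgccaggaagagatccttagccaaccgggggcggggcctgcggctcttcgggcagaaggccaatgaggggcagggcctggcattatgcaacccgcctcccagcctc
The Per3 window held 2 copies of the D-box, at bases -205 to -198 and -158 to -151 from the start. The D-box occurred in 2.06% of all 32851 promoter windows of this length, and among the clock genes Per3 was the only one of the 9 with it. An E-box lay at -166 to -161 in the first Per1 window and at -60 to -55 in the Cry1 window, against 6.02% of all windows. The E-prime box was found in Cry1 (-79 to -74), Cry2 (-166 to -161) and Nr1d1 (-28 to -23), against 3.85% of all windows. None of the 9 genes had TAGGTCA (2.23% of all windows), TGGGTCA (3.24%), TGACGTCA (1.55%) or the estrogen response element (0.0639%) in these windows. None of the motifs lay in a Dbp window. A match is a description of the letters, and binding was not measured.

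Levels below are log2 processed intensities less the 75th percentile of the same array, so that 0 is the brightness of the probe at that percentile. A gene with several probes is represented by its brightest. Differences are log2 fold changes ± SE from limma fitted over all 27071 genes and 8 groups, and calls required an adjusted p (Benjamini-Hochberg) under 0.05.

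The arrays lay on 4 slides, each with 1 array of every group except that slide 2 had none of AF2 KO with E2. The 75th percentile of intensity ran from 535.8 to 1042 over the arrays, and 61.8% to 77.1% of probes were well above background. All 7 uterine markers were above background on every array of every group. The Esr1 probe, whose place relative to either mutation was not determined, read 2.80 to 3.04 in AF2 KO uteri with E2 and 2.88 to 3.06 with placebo, against 3.03 to 3.65 with E2 and 3.24 to 3.54 with placebo in AF2 WT uteri. It read 2.84 to 3.41 with E2 and 3.19 to 3.38 with placebo in MISS KO uteri, against 2.72 to 3.00 with E2 and 3.07 to 3.32 with placebo in MISS WT uteri. Under placebo Esr1 was lower in AF2 KO than in AF2 WT uteri (-0.47 ± 0.12, adjusted p = 0.0147). Cell type markers also moved with E2. Of 9 stromal markers, all above background in every group, 2 were lower in AF2 KO, 8 in AF2 WT, 5 in MISS KO and 4 in MISS WT uteri, none higher, where 0.554%, 30%, 27.2% and 27.1% of all genes were lower. Their summed level was 491 to 526 with E2 and 605 to 765 with placebo in AF2 KO uteri, and 299 to 372 with E2 and 524 to 631 with placebo in AF2 WT uteri. It was 305 to 410 with E2 and 566 to 687 with placebo in MISS KO uteri, and 341 to 382 with E2 and 573 to 739 with placebo in MISS WT uteri. Of 6 smooth muscle markers, 4 were higher with E2 in MISS KO and 5 in MISS WT uteri, and none in AF2 KO or AF2 WT uteri. Of all genes, 30.1% were higher in MISS KO, 35.1% in MISS WT, 3.13% in AF2 KO and 27.6% in AF2 WT uteri. Of 10 epithelial markers, 6 were higher in AF2 KO than in AF2 WT uteri under placebo (summed level 220 to 282 against 149 to 194), where 3.37% of all genes were higher. In MISS WT against AF2 WT uteri under placebo, 3 of 5 macrophage, 2 of 4 lymphocyte and 1 of 5 granulocyte markers were higher. None of these was lower, and 3.04% of all genes were higher. Of 9 stromal and 5 endothelial markers 1 each was lower there. Of the clock genes, AF2 WT placebo replicate 4 stood apart for Per1 and Arntl, and several results that rest on it are given with and without it. It was picked by those values, so p-values for Per1 and Arntl without it only describe dependence on this array. Dixon's test, given at the end, flagged it for Per1 and not for Arntl. Its 75th percentile of 820.3 and its 73.5% of probes well above background lay inside the ranges above. The part of these markers in the clock gene results was not tested, and in whole uterus fewer cells of a type and less RNA per cell cannot be told apart.

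In AF2 WT uteri E2 changed all 10 clock genes, with 5 higher and 5 lower, where 57.6% of all tested genes were called (27.6% higher and 30% lower). In MISS WT uteri 9 of the 10 were called, 4 higher and 5 lower, against 62.2% of all genes (35.1% higher and 27.1% lower). In MISS KO uteri 7 of the 10 were called, 2 higher and 5 lower, against 57.3% of all genes (30.1% higher and 27.2% lower). In AF2 KO uteri none of the 10 was called by limma, against 3.68% of all genes, and 2 of the 10 had an unadjusted p under 0.05. The 5 genes called lower were Dbp, Per3, Nr1d1, Nr1d2 and Per1 in each of AF2 WT, MISS KO and MISS WT uteri. Arntl and Clock were called higher in all of these 3. Most tested genes were called in those 3 comparisons too, so the count of clock genes is read against that share. The E2 comparisons of KO and WT mice rest on separate arrays, whereas each difference of responses reuses the arrays of both.

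**Figure D1:**
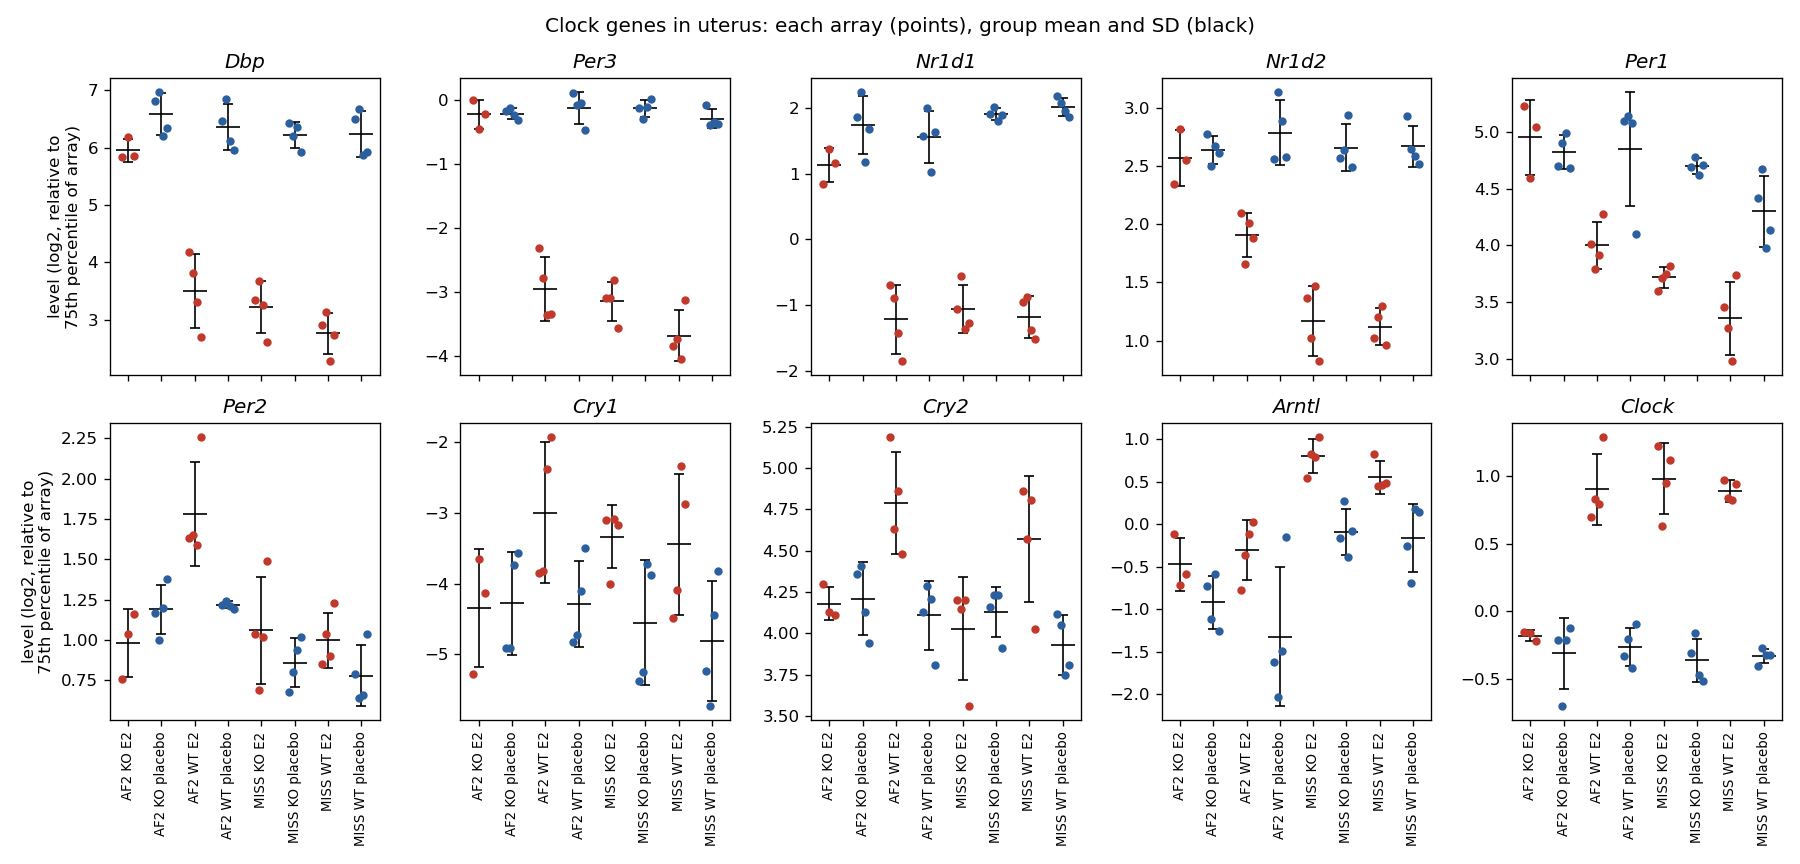
Level of each clock gene (log2, relative to the 75th percentile of the array) in every array, with E2 in red left of placebo in blue for AF2 KO, AF2 WT, MISS KO and MISS WT uteri. Black marks give the group mean and SD (n = 4, and 3 for AF2 KO with E2). Dbp, Per3 and Nr1d1 with E2 lie far below placebo in 3 genotypes and near it in AF2 KO uteri.

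Dbp encodes the D-box activator of the clock's output. Its levels were 5.83, 6.19 and 5.85 in AF2 KO uteri given E2, against 6.81, 6.97, 6.20 and 6.34 in AF2 KO uteri given placebo. They were 4.18, 3.82, 3.30 and 2.70 in AF2 WT uteri given E2, against 6.47, 6.85, 6.11 and 5.95 in AF2 WT uteri given placebo. The AF2 WT groups were more than 1 log2 unit apart at their nearest arrays, while the AF2 KO groups were nearly touching. In the MISS line Dbp was 3.34, 3.68, 3.26 and 2.61 in MISS KO uteri given E2, against 6.42, 6.20, 6.35 and 5.92 in MISS KO uteri given placebo. It was 2.91, 3.13, 2.27 and 2.74 in MISS WT uteri given E2, against 6.49, 6.67, 5.87 and 5.93 in MISS WT uteri given placebo. Every MISS array with E2 was far below every MISS array with placebo. The log2 change was -0.63 ± 0.30 in AF2 KO uteri, which was not called (adjusted p = 0.281), against -2.85 ± 0.28 (adjusted p = 1.51e-09) in AF2 WT uteri, where Dbp fell 7.19-fold. It was -3.00 ± 0.28 (adjusted p = 4.92e-10) in MISS KO uteri and -3.48 ± 0.28 (adjusted p = 2.53e-11) in MISS WT uteri. A further Dbp probe in the same gene gave log2 changes of -0.49, -2.67, -2.62 and -3.32 in AF2 KO, AF2 WT, MISS KO and MISS WT uteri. Both Dbp probes thus gave the same calls. The brighter probe lies at chr7:52965461-52965520 and the other at chr7:52965322-52965381 (mm9, the build of the array design).

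Per3, a period gene with a strong daily rhythm in most mouse tissues, had the change with the lowest adjusted p of the 10 genes in each of the 3 responding genotypes. Its levels were 0.01, -0.45 and -0.21 in AF2 KO uteri given E2, against -0.17, -0.12, -0.23 and -0.31 in AF2 KO uteri given placebo. They were -2.32, -2.78, -3.37 and -3.34 in AF2 WT uteri given E2, against 0.12, -0.08, -0.04 and -0.47 in AF2 WT uteri given placebo. In AF2 KO uteri the E2 and placebo arrays were intermingled, and in AF2 WT uteri they were separate. The MISS values were -3.10, -3.09, -2.82 and -3.57 in MISS KO uteri given E2, against -0.13, -0.29, -0.11 and 0.02 in MISS KO uteri given placebo. They were -3.85, -3.74, -4.05 and -3.12 in MISS WT uteri given E2, against -0.07, -0.39, -0.34 and -0.37 in MISS WT uteri given placebo. No array with E2 came near a placebo array in either MISS genotype. The log2 change was -0.01 ± 0.22 in AF2 KO uteri (95% interval -0.46 to 0.43), against -2.84 ± 0.20 (adjusted p = 3.29e-12) in AF2 WT uteri. Per3 fell 8.11-fold in MISS KO uteri and 10.5-fold in MISS WT uteri. Over the 9 processing alternatives the log2 change ran from -2.84 to -2.17 in AF2 WT and -3.02 to -2.36 in MISS KO uteri. In MISS WT uteri it ran from -3.40 to -2.41. All were called, and the main values lay at the larger end. The probe was dim with E2, at processed intensities of 39.6 to 82.2 in MISS WT uteri, against 529 to 725 with placebo. The Per3 probe lies at chr4:150379256-150379315 (mm9).

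Nr1d1 encodes REV-ERBα, the repressor of Arntl. Its levels were 0.85, 1.38 and 1.17 in AF2 KO uteri given E2, against 1.86, 2.25, 1.18 and 1.68 in AF2 KO uteri given placebo. They were -0.70, -0.89, -1.43 and -1.86 in AF2 WT uteri given E2, against 1.57, 2.01, 1.03 and 1.64 in AF2 WT uteri given placebo. The AF2 KO groups overlapped and the AF2 WT groups did not. In the MISS line Nr1d1 was -1.06, -0.55, -1.36 and -1.27 in MISS KO uteri given E2, against 1.92, 2.02, 1.80 and 1.89 in MISS KO uteri given placebo. It was -0.96, -0.87, -1.38 and -1.52 in MISS WT uteri given E2, against 2.18, 2.08, 1.96 and 1.86 in MISS WT uteri given placebo. All MISS arrays with E2 were negative on this scale and all MISS placebo arrays were positive. The log2 change was -0.61 ± 0.26 in AF2 KO uteri, with an unadjusted p of 0.0271 and an adjusted p of 0.217, against -2.78 ± 0.24 (adjusted p = 1.34e-10) in AF2 WT uteri. The Nr1d1 probe lies at chr11:98630526-98631028 (mm9), a span wider than the others. Nr1d1 fell 7.82-fold in MISS KO uteri and 9.2-fold in MISS WT uteri.

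Nr1d2, which encodes the second REV-ERB repressor, moved less. Its levels were 2.10, 1.66, 2.01 and 1.88 in AF2 WT uteri given E2, against 2.56, 3.14, 2.89 and 2.58 in AF2 WT uteri given placebo. The group with E2 was the lower one, without overlap. The levels in MISS KO uteri ranged from 0.82 to 1.47 with E2 and from 2.49 to 2.94 with placebo, and in MISS WT uteri from 0.96 to 1.30 with E2 and from 2.52 to 2.93 with placebo. In AF2 KO uteri the range was 2.35 to 2.82 with E2 and 2.50 to 2.78 with placebo. The log2 change was -0.07 ± 0.16 in AF2 KO uteri and -0.88 ± 0.15 (adjusted p = 1.38e-05) in AF2 WT uteri. It was -1.49 ± 0.15 (adjusted p = 2.38e-09) in MISS KO uteri and -1.55 ± 0.15 (adjusted p = 9.68e-10) in MISS WT uteri. A further Nr1d2 probe gave -0.16, -0.76, -1.21 and -1.46 in AF2 KO, AF2 WT, MISS KO and MISS WT uteri. The fall of Nr1d2 was larger in MISS WT than in AF2 WT uteri, with a difference of -0.67 ± 0.21 (adjusted p = 0.0449), the only 1 of the 10 genes so called, where 9.5% of all genes were (6.39% higher and 3.11% lower). The further probe gave -0.70 for that difference (adjusted p = 0.00767). For the brighter probe the call was lost in 12 of 16 fits that each left out 1 array, with values from -0.79 to -0.59, with only the compared groups in the fit (adjusted p = 0.0717) and with no filter on dim probes (adjusted p = 0.0596).

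Per1, a period gene that is also switched on quickly by glucocorticoids and cAMP, fell in the same genotypes. Its levels were 5.23, 4.59 and 5.04 in AF2 KO uteri given E2, against 4.70, 4.90, 4.99 and 4.68 in AF2 KO uteri given placebo. They were 4.01, 3.79, 3.92 and 4.28 in AF2 WT uteri given E2, against 5.09, 5.14, 5.08 and 4.10 in AF2 WT uteri given placebo. The groups overlapped in AF2 KO uteri, and in AF2 WT uteri they overlapped through 1 placebo array, replicate 4, at 4.10 beside 5.08 to 5.14 in the others. Per1 was 3.60, 3.71, 3.75 and 3.82 in MISS KO uteri given E2, against 4.69, 4.78, 4.62 and 4.71 in MISS KO uteri given placebo. It was 3.46, 3.27, 2.98 and 3.74 in MISS WT uteri given E2, against 4.42, 4.67, 3.98 and 4.14 in MISS WT uteri given placebo. No overlap was seen in the MISS line. The log2 change was 0.14 ± 0.21 in AF2 KO uteri, against -0.85 ± 0.19 (adjusted p = 0.000448) in AF2 WT uteri and -1.10 there without placebo replicate 4. It was -0.98 ± 0.19 (adjusted p = 8.89e-05) in MISS KO uteri and -0.94 ± 0.19 (adjusted p = 0.000134) in MISS WT uteri. A dim Per1 probe, designed on a cDNA clone and placed at chr11:68919895-68919954 (mm9), showed no called change (0.35, -0.07, -0.20 and 0.02 in AF2 KO, AF2 WT, MISS KO and MISS WT uteri), so the result rests on the brighter probe at chr11:68923364-68923423. Per2, the partner of PER1 in the repressor complex, went the other way in 1 genotype. Its levels were 1.63, 1.65, 1.59 and 2.26 in AF2 WT uteri given E2, against 1.22, 1.24, 1.21 and 1.19 in AF2 WT uteri given placebo. All E2 arrays were higher, with replicate 4 well above the rest, and Per2 rose by 0.56 ± 0.15 (adjusted p = 0.00216). Per2 was not called in AF2 KO (-0.20 ± 0.16), MISS KO (0.20 ± 0.15) or MISS WT uteri (0.22 ± 0.15). The difference of the Per2 response, MISS WT minus AF2 WT, was -0.34 ± 0.21 (adjusted p = 0.353), so a difference between the wild types was not shown.

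Arntl and Clock encode the activator pair. Clock levels were -0.15, -0.16 and -0.22 in AF2 KO uteri given E2, against -0.21, -0.70, -0.21 and -0.12 in AF2 KO uteri given placebo. They were 0.70, 0.83, 0.79 and 1.29 in AF2 WT uteri given E2, against -0.33, -0.20, -0.42 and -0.09 in AF2 WT uteri given placebo. The AF2 WT groups were separate and the AF2 KO groups overlapped. Clock was 1.22, 0.63, 0.95 and 1.12 in MISS KO uteri given E2, against -0.31, -0.16, -0.47 and -0.51 in MISS KO uteri given placebo. It was 0.97, 0.84, 0.82 and 0.94 in MISS WT uteri given E2, against -0.40, -0.27, -0.32 and -0.32 in MISS WT uteri given placebo. Each MISS group with E2 was entirely above its placebo group. Clock rose 2.23-fold in AF2 WT (1.16 ± 0.13, adjusted p = 2.05e-08), 2.54-fold in MISS KO (1.34 ± 0.13, adjusted p = 1.24e-09) and 2.32-fold in MISS WT uteri (1.22 ± 0.13, adjusted p = 7e-09). In AF2 KO uteri the log2 change was 0.13 ± 0.14 (95% interval -0.16 to 0.43). The Clock probe lies at chr5:76641377-76641436 (mm9).

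Arntl levels were -0.12, -0.71 and -0.58 in AF2 KO uteri given E2, against -0.73, -1.11, -0.59 and -1.26 in AF2 KO uteri given placebo. They were -0.77, -0.36, -0.11 and 0.03 in AF2 WT uteri given E2, against -1.62, -2.03, -1.49 and -0.15 in AF2 WT uteri given placebo. Both pairs of groups overlapped, in AF2 WT uteri only through placebo replicate 4 at -0.15, the array that was also low for Per1. Arntl was 0.54, 0.83, 0.79 and 1.03 in MISS KO uteri given E2, against -0.16, 0.27, -0.38 and -0.08 in MISS KO uteri given placebo. It was 0.83, 0.45, 0.46 and 0.48 in MISS WT uteri given E2, against -0.26, -0.69, 0.18 and 0.14 in MISS WT uteri given placebo. The MISS groups did not overlap. The log2 change was 0.45 ± 0.30 in AF2 KO uteri, not called, against 1.02 ± 0.28 (adjusted p = 0.00257) in AF2 WT uteri and 1.41 there without that array. It was 0.88 ± 0.28 (adjusted p = 0.00765) in MISS KO uteri and 0.71 ± 0.28 (adjusted p = 0.0278) in MISS WT uteri. The MISS WT call was lost without E2 replicate 1, placebo replicate 1 or placebo replicate 2 (adjusted p = 0.0808, 0.0576 and 0.115).

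Cry1 and Cry2 encode the cryptochrome repressors, and both were measured less firmly. Cry1 was dim, above background on 30 of 31 arrays and on 3 of 4 MISS WT placebo arrays. Its levels ranged from -5.28 to -3.65 with E2 and from -4.91 to -3.57 with placebo in AF2 KO uteri, and from -3.85 to -1.93 with E2 and from -4.83 to -3.50 with placebo in AF2 WT uteri. They ranged from -4.00 to -3.09 with E2 and from -5.37 to -3.72 with placebo in MISS KO uteri, and from -4.48 to -2.35 with E2 and from -5.73 to -3.82 with placebo in MISS WT uteri. Every pair of groups overlapped. The spread followed the slide: less group means, Cry1 averaged -0.62 and -0.69 on slides 1 and 2, and 0.58 and 0.65 on slides 3 and 4. Cry1 rose in AF2 WT (1.29 ± 0.55, adjusted p = 0.0455) and MISS WT uteri (1.36 ± 0.55, adjusted p = 0.0329), and its change in MISS KO uteri was 1.21 ± 0.55, not called (adjusted p = 0.0616). The MISS KO value was called in 4 of the 8 processing alternatives that gave Cry1 a value: with the slide as a block (adjusted p = 0.000113), normexp background (adjusted p = 0.0242), only the compared groups (adjusted p = 0.0356) and median scaling (adjusted p = 0.0404). Over these 8 the change ran from 0.58 to 1.59 in AF2 WT, 0.53 to 1.33 in MISS KO and 0.71 to 1.41 in MISS WT uteri. Within each of the 4 slides, Cry1 was higher with E2 by 0.90 to 1.72 in AF2 WT, 0.63 to 2.25 in MISS KO and 0.77 to 2.09 in MISS WT uteri. In AF2 KO uteri the values within 3 slides were -0.56 to 0.09. The AF2 WT call was lost with no filter on dim probes (adjusted p = 0.0591) and with only the compared groups in the fit (adjusted p = 0.0546). The MISS WT call was lost under quantile normalization (adjusted p = 0.0502) and with only the compared groups (adjusted p = 0.0627). Of 8 fits that each left out 1 array, 3 kept the AF2 WT call and 4 the MISS WT call.

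Cry2 levels were 5.19, 4.63, 4.86 and 4.48 in AF2 WT uteri given E2, against 4.13, 4.29, 4.21 and 3.81 in AF2 WT uteri given placebo. They were 4.20, 4.15, 4.20 and 3.56 in MISS KO uteri given E2, against 4.16, 4.23, 4.23 and 3.91 in MISS KO uteri given placebo. They were 4.86, 4.57, 4.81 and 4.03 in MISS WT uteri given E2, against 4.12, 4.05, 3.75 and 3.81 in MISS WT uteri given placebo. AF2 WT arrays with E2 were all above placebo, the MISS WT groups overlapped through 1 array with E2 at 4.03, and the MISS KO groups were intermingled. In AF2 KO uteri Cry2 ranged from 4.11 to 4.30 with E2 and from 3.94 to 4.41 with placebo. Cry2 rose by 0.68 ± 0.18 (adjusted p = 0.00161) in AF2 WT and by 0.64 ± 0.18 (adjusted p = 0.00273) in MISS WT uteri. Its change was -0.03 ± 0.19 in AF2 KO and -0.10 ± 0.18 in MISS KO uteri, neither called. This rise depended on the processing and on the probe. Under quantile normalization it was 0.20 in AF2 WT and 0.06 in MISS WT uteri, and in the authors' deposited matrix 0.24 and 0.07, none of them called. The MISS KO value ran from -0.54 to 0.02 over the 9 processing alternatives and was a called fall in 3 of them, at -0.54 under quantile normalization (adjusted p = 0.00168), -0.54 in the authors' deposited matrix (adjusted p = 0.00215) and -0.52 with the mean of probes (adjusted p = 0.0198). With the mean of probes the MISS WT value was 0.19, not called. The further Cry2 probe, at chr2:92251417-92251476 (mm9) and named from a different Cry2 accession than the brighter probe at chr2:92243807-92243866, changed by 0.22 in AF2 WT and -0.25 in MISS WT uteri, not called, and fell by 0.93 in MISS KO uteri (adjusted p = 0.000428).

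**Figure D2:**
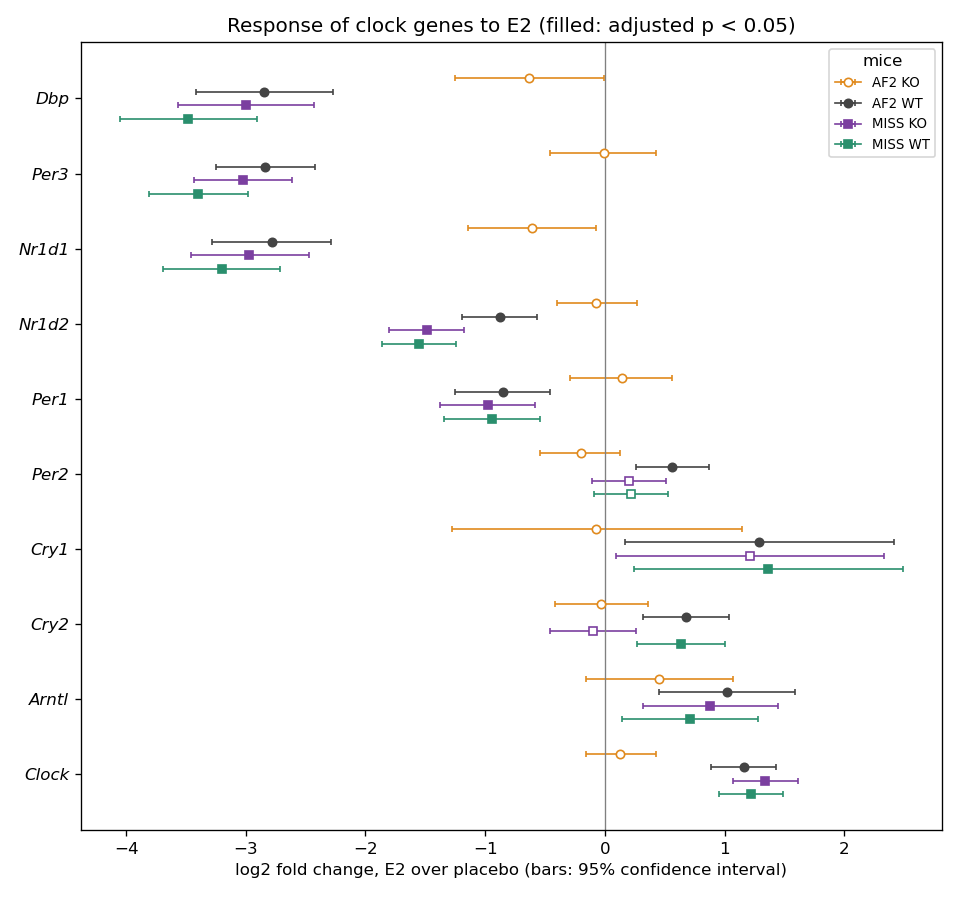
Log2 fold change of each clock gene, E2 over placebo, in AF2 KO, AF2 WT, MISS KO and MISS WT uteri, with 95% confidence intervals and filled marks at an adjusted p under 0.05. No AF2 KO mark is filled, and the MISS KO and MISS WT intervals overlap for every gene except Cry2.

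The response in AF2 KO uteri was set against that in AF2 WT uteri as the difference of the log2 changes, KO minus WT, which asks how much of the E2 effect needs AF2. The difference was called for 8 of the 10 genes, 5 higher and 3 lower, where 51.9% of all genes were called (29% higher and 22.9% lower). Of the genes that fell in AF2 WT uteri, it was 2.82 ± 0.30 (adjusted p = 1.3e-08) for Per3, 2.22 ± 0.41 (adjusted p = 5.98e-05) for Dbp and 2.18 ± 0.35 (adjusted p = 1.05e-05) for Nr1d1. It was 0.99 ± 0.28 (adjusted p = 0.00503) for Per1 and 0.82 ± 0.22 (adjusted p = 0.00313) for Nr1d2. For Per1, Per3 and Nr1d2 this difference was close in size to the whole fall in AF2 WT uteri. Of the genes that rose in AF2 WT uteri, the difference was -1.02 ± 0.19 (adjusted p = 7.45e-05) for Clock, -0.77 ± 0.22 (adjusted p = 0.00507) for Per2 and -0.71 ± 0.26 (adjusted p = 0.0234) for Cry2. It was -1.36 ± 0.80 for Cry1 and -0.57 ± 0.41 for Arntl, neither called (adjusted p = 0.161 and 0.253). Without AF2 WT placebo replicate 4 the Arntl difference was -0.96 (adjusted p = 0.0124), and with the slide as a block the Cry1 difference was -1.59 (adjusted p = 0.000513). Scaling to each array's median gave 0.59 for Per1 and 0.42 for Nr1d2, no longer called (adjusted p = 0.0941 and 0.12). That scaling moved the median difference of all genes to -0.21, against 0.18 in the main scaling. The Cry2 difference was -0.22 under quantile normalization, not called.

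The MISS KO response set against the MISS WT response, which asks how much of the E2 effect needs ERα at the membrane, gave no called difference by limma for any of the 10 genes. The share of all genes called was 0.901%, and 1 of the 10 had an unadjusted p under 0.05. The 95% intervals of the difference, KO minus WT, were -0.33 to 1.29 for Dbp, -0.21 to 0.96 for Per3, -0.46 to 0.93 for Nr1d1 and -0.37 to 0.50 for Nr1d2. They were -0.60 to 0.53 for Per1, -0.25 to 0.51 for Clock and -0.63 to 0.98 for Arntl. For Dbp, Per3, Nr1d1, Nr1d2 and Clock the change in each MISS genotype was larger than either bound of that interval. The gene with the low unadjusted p was Cry2, at -0.74 ± 0.25 (adjusted p = 0.203), which was called with the slide as a block (adjusted p = 0.0112) and without MISS WT E2 replicate 4 (-0.92, adjusted p = 0.0429). Across the 9 processing alternatives the Cry2 difference ran from -0.74 to -0.60.

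Placebo uteri of mutant and wild type were compared to see whether the receptor's mutation changed the clock genes without added hormone. No clock gene was called by limma in AF2 KO against AF2 WT uteri (9.04% of all genes were, 3.37% higher and 5.67% lower) or in MISS KO against MISS WT uteri (0.887%), and none had an unadjusted p under 0.05. Dbp differed by 0.23 ± 0.28 in the AF2 line and -0.02 ± 0.28 in the MISS line, and Per3 by -0.09 ± 0.20 and 0.17 ± 0.20. Without AF2 WT placebo replicate 4, Arntl was higher in AF2 KO uteri by 0.79 (adjusted p = 0.0214). The wild types themselves, MISS WT (C57BL6/N) against AF2 WT (C57BL6/J), were also compared under placebo. In the main fit only Arntl was called, at 1.16 ± 0.28 (adjusted p = 0.00568), where 11.7% of all genes were (3.04% higher and 8.61% lower). A count of 1 in 10 is near that share. The 2 groups overlapped through the same AF2 WT array, and without it the value was 1.55. Per1 was -0.55 ± 0.19 and Per2 -0.43 ± 0.15 in this comparison, not called (adjusted p = 0.0652 and 0.0622). Per2 was called with normexp background (adjusted p = 0.0361), the slide as a block (adjusted p = 0.00389) and the authors' matrix (adjusted p = 0.0469). Per1 was called with the slide as a block (adjusted p = 0.0487). Without AF2 WT placebo replicate 4, which was picked by its own Per1 and Arntl values, Per1 was -0.80 (adjusted p = 0.00164). With only these 2 groups in the fit Arntl was not called (adjusted p = 0.148). Line, substrain and colony cannot be told apart here.

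Variation between arrays of one group was examined with each gene's values less its group means, over 31 arrays. Arntl and Dbp ran in opposite directions (Pearson r = -0.59, permutation p = 0.00113, adjusted over the 4 pairs tested 0.00452; Spearman rho = -0.58, permutation p = 0.0026, adjusted 0.0104). Permutations were drawn within groups. Without the 2 arrays farthest from the median of Arntl r was -0.57, and within the 4 slides it was -0.67, -0.78, -0.62 and -0.41. It was -0.62 over the 15 arrays with E2 and -0.67 over the 16 with placebo. Dbp and Per3 ran together (r = 0.54, permutation p = 0.0227, adjusted 0.0455; rho = 0.47, permutation p = 0.0309, adjusted 0.0618), with 0.60, 0.52, 0.28 and 0.82 within slides and r = 0.41 without the 2 farthest arrays. Arntl and Nr1d1 (r = -0.32, adjusted permutation p = 0.204; rho = -0.34, adjusted 0.125) and Per1 and Per2 (r = 0.14, adjusted permutation p = 0.384; rho = 0.12, adjusted 0.555) did not pass. The Arntl and Nr1d1 result depended on single arrays. Without AF2 WT placebo replicate 4 r was -0.50 (adjusted permutation p = 0.0264), and without AF2 WT placebo replicate 3 it was -0.39 (adjusted permutation p = 0.0426). The Dbp and Per3 result was not firm. Its adjusted p for rho was over the threshold, and its Pearson r missed the threshold without many single arrays and under some processing alternatives, given at the end. Some other pairs changed once slide means were removed. Dbp and Cry1 had r = -0.72 with group means removed and -0.09 with slide means removed too, and Dbp and Per2 -0.57 and -0.10. Dbp and Nr1d1 had 0.79 and 0.63.

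**Figure D3:**
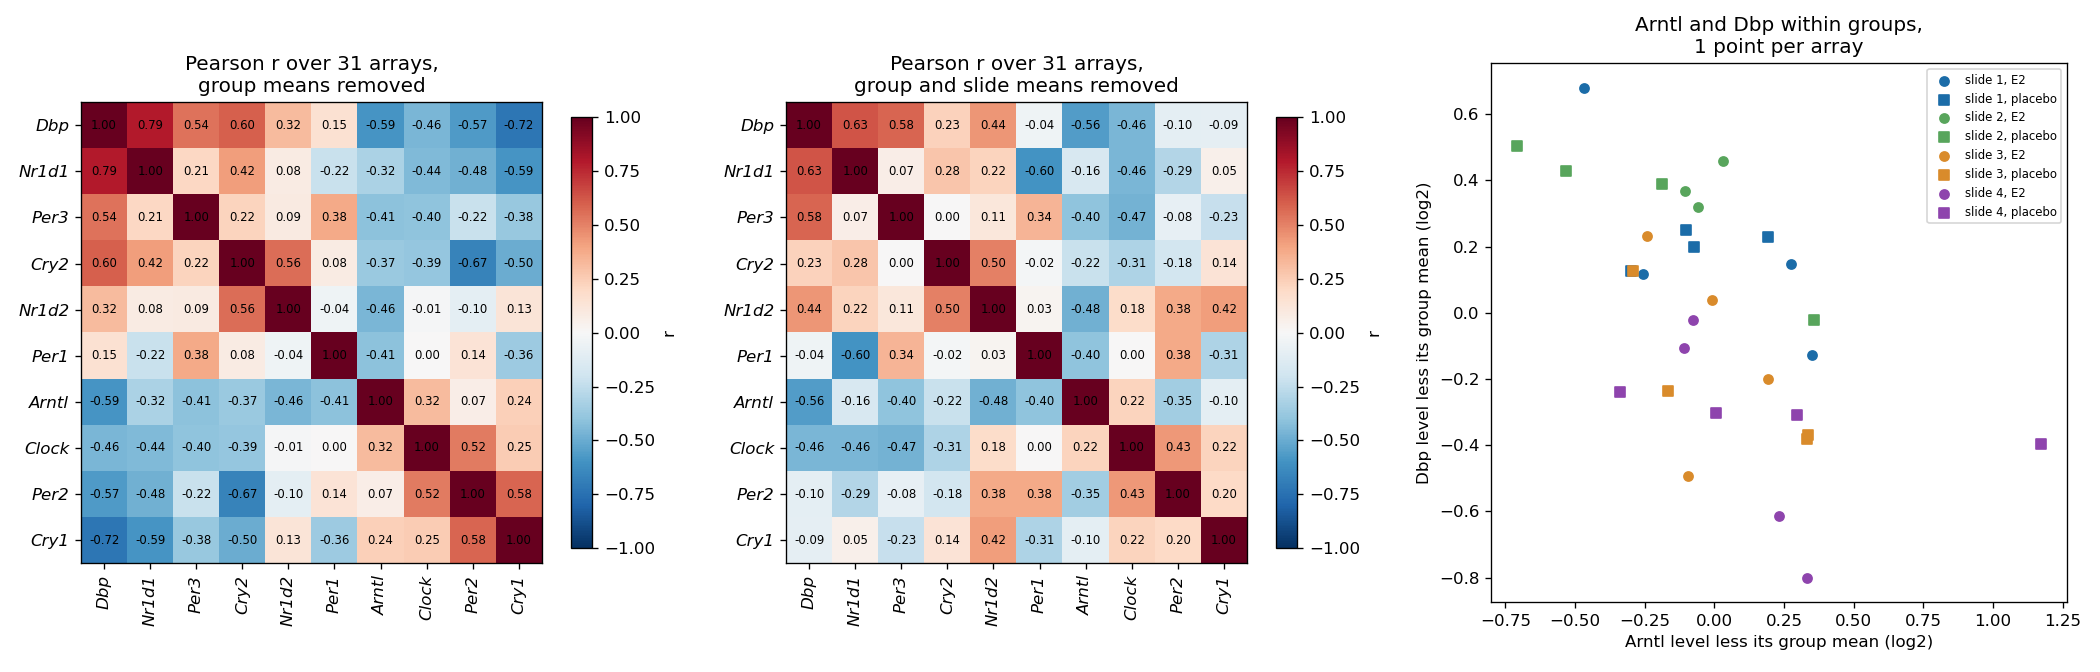
Left and middle, Pearson r between clock genes over 31 arrays after removing group means, and after removing group and slide means. Right, each array's Arntl level against its Dbp level, both less the group mean (log2), coloured by slide with E2 as circles and placebo as squares; the points run from high Dbp with low Arntl to low Dbp with high Arntl, and the array farthest right is AF2 WT placebo replicate 4.

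The genes whose values less group means lay nearest to 3 of the clock genes, out of 27070, were listed by Pearson r over the 31 arrays, as a description. AF2 WT placebo replicate 4 was kept, and the lists were not drawn without it. Nearest to Per1 were Tsc22d3 (0.84), which encodes the glucocorticoid-induced protein GILZ, Pced1b (0.81) and Arl4a (0.81). Nearest to Dbp were Sptbn1 (0.88), Shisa5 (0.87) and Gypc (0.87). Nearest to Arntl was AK038006 (0.86), a cDNA clone whose probe lies 70.8 kb from the Arntl probe, at chr7:120386502-120386561 against chr7:120457261-120457320 (mm9). The next were ENSMUST00000098595 and Zdhhc17, both at 0.76.

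Of 11 other transcription factors of the clock loops, 0 were called by limma in AF2 KO uteri (median log2 change 0.02, against 0.04 over all genes, of which 3.68% were called) and all 11 in AF2 WT uteri, 4 higher and 7 lower (median -1.12, against -0.07 with 57.6% called). In MISS KO uteri 4 were higher and 7 lower (median -1.24, against 0.03 with 57.3% called), and in MISS WT uteri 3 were higher, 7 lower and 1 not called (median -0.85, against 0.16 with 62.2% called). Nfil3, the D-box repressor that opposes DBP, rose by 2.48 ± 0.31 (adjusted p = 1.12e-07) in AF2 WT, 2.62 ± 0.31 (adjusted p = 3.9e-08) in MISS KO and 3.36 ± 0.31 (adjusted p = 3.7e-10) in MISS WT uteri. Hlf, a D-box activator and relative of DBP, fell in the same genotypes, with log2 changes of -2.29 ± 0.16, -2.68 ± 0.16 and -2.97 ± 0.16. The activator and the repressor of one element thus moved in opposite directions. Ciart, a repressor of the ARNTL and CLOCK pair, rose by 2.05 ± 0.32 (adjusted p = 3.44e-06) in AF2 WT uteri. Ciart was dim in every group. It averaged -2.57 ± 0.31 with E2 and -4.69 ± 0.72 with placebo in MISS KO uteri (SD, n = 4 each). The MISS WT averages were closer, at -3.05 ± 0.21 with E2 and -3.83 ± 0.31 with placebo (SD, n = 4 each). The AF2 KO minus AF2 WT difference was called higher for 7 and lower for 3 of the 11, where 51.9% of all genes were called, with 2.22 ± 0.23 for Hlf, -2.35 ± 0.47 for Ciart and -1.93 ± 0.23 for Bhlhe40, an E-box repressor. Npas2, a relative of Clock named here after its value was seen, was the 1 not called, both for this difference and in MISS WT uteri. In the MISS line 1 of the 11 was called, where 0.901% of all genes were. It was Rora, which activates Arntl through the element that REV-ERB proteins block, and it fell more in MISS KO than in MISS WT uteri, by -0.88 ± 0.21 (adjusted p = 0.0386). Between wild types, 3 of the 11 differed in response, where 9.5% of all genes did, among them Bhlhe40 (-0.73 ± 0.22) and Hlf (-0.69 ± 0.22), MISS WT minus AF2 WT.

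**Figure D4:**
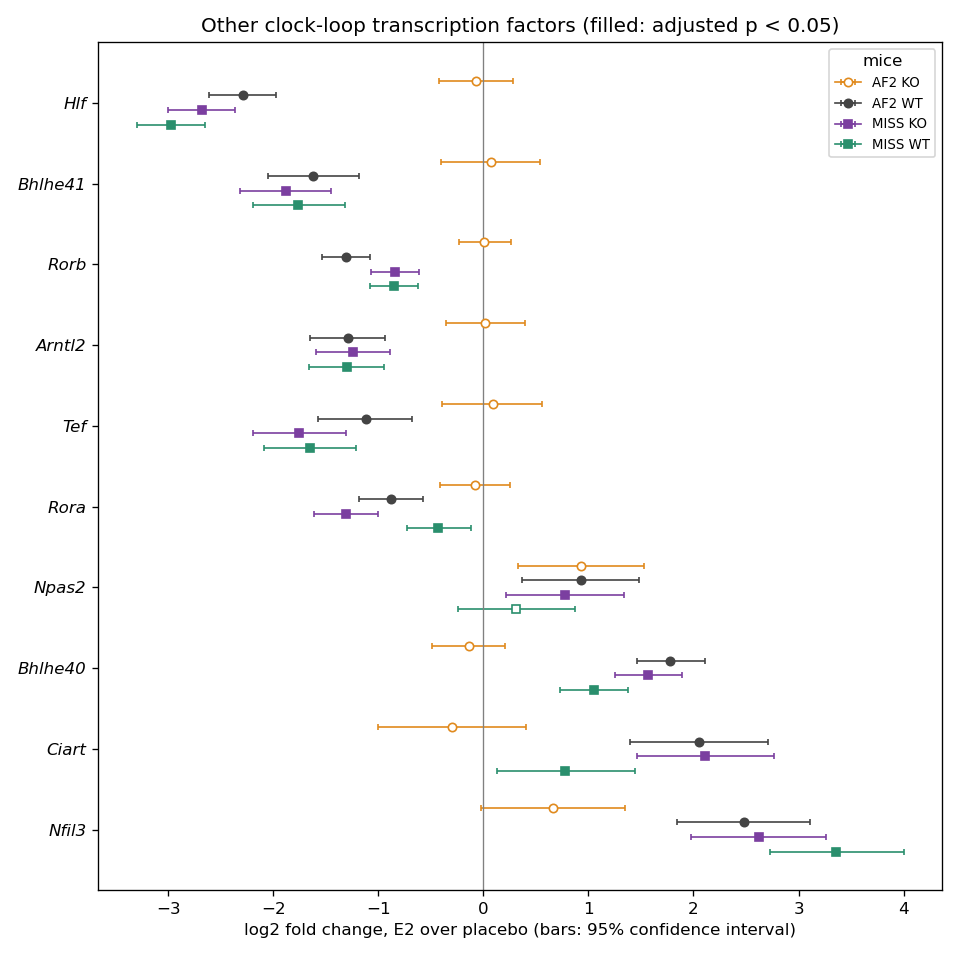
Log2 fold change, E2 over placebo, of 10 other transcription factors of the clock loops in AF2 KO, AF2 WT, MISS KO and MISS WT uteri, with 95% confidence intervals; filled marks passed the adjusted p threshold of 0.05. Nfil3, Ciart and Bhlhe40 lie right of 0 and Hlf, Bhlhe41 and Tef left of it in 3 genotypes, and no AF2 KO mark is filled.

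Among 15 kinases, ubiquitin ligases and partners of clock proteins, none was called in AF2 KO uteri, where 3.68% of all genes were, and 6 were higher and 3 lower in AF2 WT uteri, where 57.6% of all genes were called (medians 0.02 and 0.12). In MISS KO uteri 6 were higher and 4 lower (median 0.04, with 57.3% of all genes called), and in MISS WT uteri 5 were higher and 5 lower (median 0.17, with 62.2% of all genes called). These counts lie near the shares of all genes. Csnk1a1, which encodes casein kinase 1α, averaged 3.18 ± 0.07 in AF2 KO uteri with E2 and 3.19 ± 0.10 with placebo, against 4.70 ± 0.13 with E2 and 3.17 ± 0.13 with placebo in AF2 WT uteri (SD, n = 4, and 3 for AF2 KO with E2). It rose by 1.53 ± 0.10 (adjusted p = 7.11e-13) in AF2 WT and 1.54 ± 0.10 (adjusted p = 5.24e-13) in MISS KO uteri, and in MISS WT uteri it averaged 4.54 ± 0.12 with E2 and 3.04 ± 0.12 with placebo (SD, n = 4 each), also called. Fbxl21, a ubiquitin ligase subunit for CRY proteins, fell by 0.86 in AF2 WT, 2.16 in MISS KO and 1.72 in MISS WT uteri. Fbxl21 was dim with E2, averaging -3.07, -3.92 and -3.62 in these genotypes, against -2.21, -1.76 and -1.90 with placebo. Under placebo Fbxl21 was higher in AF2 KO than in AF2 WT uteri, by 0.61 ± 0.11 (adjusted p = 0.000439), and it was the 1 of the 15 so called, where 9.04% of all genes were.

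Among 10 genes with daily rhythms in many mouse tissues, Nampt, the enzyme of NAD salvage, was the 1 called in AF2 KO uteri (3.68% of all genes were), where it rose by 0.52 ± 0.13 (adjusted p = 0.0245); it was not called in AF2 WT uteri (-0.12 ± 0.12). In AF2 WT uteri 1 was higher and 4 lower, in MISS KO uteri 2 higher and 4 lower, and in MISS WT uteri 3 higher and 4 lower, where 57.6%, 57.3% and 62.2% of all genes were called. These counts too lie near the shares of all genes. Tsc22d3, the gene nearest to Per1 within groups, fell by 1.84 in AF2 WT, 1.83 in MISS KO and 1.65 in MISS WT uteri, and its AF2 KO minus AF2 WT difference was 2.38 ± 0.35 (adjusted p = 3.13e-06). Klf9, also induced by glucocorticoids, fell by 0.90 in AF2 WT and 0.67 in MISS WT uteri. In MISS KO uteri Klf9 was lower with E2 too, averaging 2.73 ± 0.10 against 3.38 ± 0.11 with placebo (SD, n = 4 each). Fkbp5, a further glucocorticoid target, rose by 1.26 in MISS KO and 1.17 in MISS WT uteri, and its changes of 1.16 ± 0.48 in AF2 KO and 0.64 ± 0.45 in AF2 WT uteri were not called (adjusted p = 0.206 and 0.233). Under placebo MISS WT uteri were lower than AF2 WT uteri for Klf10 (-0.81 ± 0.14, adjusted p = 0.000356) and Usp2 (-0.57 ± 0.13, adjusted p = 0.00355).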

How the data were processed

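Total RNA from uterus was hybridised to one-colour Agilent arrays. The scanner files hold, per the file headers, the spot intensity that the authors' Feature Extraction software (Agilent Feature Extraction 10.10.1.1 and limma are listed in the submitters' processing notes) had corrected for background but not scaled between arrays, and other deposited columns mark each spot with 0 or 1 as above background, saturated or an outlier. The authors' deposited matrix holds log2 values for 43753 probes with a median of 7.56 on every array, and was used as an alternative. Its further processing is not given in the sources used here.

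Here log2 processed intensity was taken with outlier-marked spots left out (56 missing values among tested genes), spots of a probe were averaged, and each array's 75th percentile was subtracted. Probes were tested if all arrays of some group showed them well above background (40348 probes, 27071 genes by their brightest probe). No spot was saturated, and the number of arrays limits the precision. Groups follow the labels, and replicate numbers follow accession order. A linear model with 8 group means was fitted to all genes with limma 3.58.1 (R 4.3.3, 23 residual degrees of freedom), with 10 contrasts and Benjamini-Hochberg adjustment at 0.05. Correlations used Python 3.11.15 and scipy 1.17.1 with 100000 permutations within groups over 4 pairs. The fit was tested on simulated data.

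The members and lists were chosen with earlier results of these data known. All 10 members are named. From each other list, up to 3 called genes with the largest change in a comparison are named. A listed gene is counted but not reported here. Alternatives were normexp background, quantile and median scaling, stricter and no filters, slide as a block, mean of probes, the authors' matrix, only the groups compared, and leaving out each array. Exon annotation on mm9 was not used here.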

Additional observations from a re-analysis of the deposited data

Results flagged for a closer look

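In 7 of 70 tests of a clock gene in a group of 4 arrays, 1 array lay apart from the others by Dixon's test, where chance gives about 1 in 20. AF2 WT placebo replicate 4 had 4.10 for Per1 (the others 5.08 to 5.14), and AF2 WT E2 replicate 4 had 2.26 for Per2 (1.59 to 1.65). MISS WT placebo replicate 1 had -0.07 for Per3 (-0.39 to -0.34), and MISS KO E2 replicate 2 had -4.00 for Cry1 (-3.18 to -3.09). MISS KO E2 replicate 4 had 3.56 for Cry2 (4.15 to 4.20), and MISS WT E2 replicate 1 had 0.83 for Arntl (0.45 to 0.48). AF2 KO placebo replicate 2 had -0.70 for Clock (-0.21 to -0.12).

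The E2 response differed by the interaction term between AF2 KO and AF2 WT uteri for 8 genes: Per3 by 2.82, Dbp by 2.22, Nr1d1 by 2.18, Per1 by 0.99, Nr1d2 by 0.82, Cry2 by -0.71, Per2 by -0.77 and Clock by -1.02 on the log2 scale, KO minus WT. It differed between MISS WT and AF2 WT uteri for Nr1d2, by -0.67.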

How the results depend on the processing

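No paired analysis was possible because replicate numbers follow accession order, so they pair no samples, and the labels link no arrays across groups. Arrays do share slides, and a fit with the slide as a block was made in its place. It added calls for Cry1 in MISS KO uteri (adjusted p = 0.000113) and in AF2 KO minus AF2 WT (0.000513), Cry2 in MISS KO minus MISS WT (0.0112), and Per1 (0.0487) and Per2 (0.00389) in MISS WT against AF2 WT under placebo, and removed none. Over the 10 comparisons, single-gene results stayed on their side of the threshold 860 times under processing alternatives. They gained a call 13 times and lost one 17 times. Leaving out single arrays gave 985, 9 and 26. Direction was not checked for a result that stayed uncalled, so such a result could change sign and still be counted as kept. No called value changed sign. Counts of clock genes called without single arrays were 0 in AF2 KO, 9 to 10 in AF2 WT, 7 to 8 in MISS KO and 7 to 9 in MISS WT uteri, and 7 to 8 for AF2 KO minus AF2 WT. The MISS KO minus MISS WT count was 1 with slide as a block and 0 to 1 without single arrays. The AF2 KO against AF2 WT placebo count was 0 to 1 without single arrays. The MISS WT minus AF2 WT response count was 0 with no filter and with only the groups compared, and 0 to 1 without single arrays. For MISS WT against AF2 WT under placebo the count was 2 with normexp, 3 with slide as a block, 2 in the authors' matrix, 0 with only the groups compared, and 1 to 2 without single arrays. The Dbp and Per3 correlation missed the threshold under quantile normalization (0.51, adjusted permutation p = 0.0653) and the mean of probes (0.54, adjusted permutation p = 0.0546). The same held in the authors' matrix (0.44, adjusted permutation p = 0.143). Without single arrays this correlation ran from 0.42 to 0.62. It missed the threshold without many of them, including each AF2 WT array with E2 in turn. Among these were AF2 WT E2 replicate 1 (0.42, adjusted permutation p = 0.127) and MISS KO E2 replicate 4 (0.47, adjusted permutation p = 0.152). The Arntl and Nr1d1 correlation ran from -0.50 to -0.23, and passed the threshold without AF2 WT placebo replicate 3 or replicate 4. The Arntl and Dbp correlation ran from -0.64 to -0.54. Cry1, dim throughout, was left without a value by the stricter filter. The causes were not tested.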
